A study of Homo sapiens with 24 samples.

Results

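The 31 genes described here make cholesterol and fatty acids or control how much of them a cell makes. They were chosen as a fixed list of symbols, matched on the array by gene name with older symbols accepted (SC4MOL, now MSMO1, and SC5DL, now SC5D), and all 31 of 31 listed genes were found among the 30982 gene names of the array, with 49 probes. All 31 also passed the filter on dim probes, which left 22847 gene names tested. RNA of U87 MG, an established human glioblastoma cell line, had been collected 24 h after proton therapy (PT) and measured on 2-color Agilent arrays. Of the 4 configurations, U87 2 Gy and U87 10 Gy were cells irradiated with protons alone, each set against untreated U87 cells. The other configurations, U87 Si306 + 2 Gy with its 10 Gy counterpart U87 Si306 + 10 Gy, were cells given Si306, an inhibitor of the SRC kinase used at 10 µM, together with the same proton dose, and each was set against cells that received that dose of PT alone. Cells given PT alone are therefore the treated condition in one comparison and the control condition in another, and both proton doses are set against untreated cells. Whether the same RNA served in both places is not stated. No array compared Si306 without protons. All samples come from 1 cell line. Every value below is a log2 ratio of treated (Cy5) to control (Cy3) RNA, so that 1 is the 2-fold limit for a differentially expressed gene (DEG) and 0.5 is a weaker level used beside it.

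Cholesterol is built from acetyl-CoA. The mevalonate steps yield isoprenoid units, which are joined to squalene, closed to lanosterol and trimmed to cholesterol in the endoplasmic reticulum. The transcription factors SREBP-1 and SREBP-2, encoded by SREBF1 and SREBF2, are held in that membrane with the escort protein SCAP by INSIG1 and INSIG2 when sterols are plentiful, and switch on both branches when sterols run low. Fatty acids start from citrate through ACLY, ACACA and FASN and are then lengthened by ELOVL6 and desaturated by SCD, FADS1 and FADS2. In the brain cholesterol is made locally, because lipoproteins of the blood do not cross its barrier.

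The sequences just before the start of these genes were searched for the letters that SREBPs and their partner factors are known to read. Letters of the partner factors were common in them, while letters of SREBPs were rare. RefSeq promoters (GRCh38.p14) were found for 27 members, and not for ACAT2, FDFT1, SQLE and FASN. The 250 bases upstream of the start were searched on both strands for TCACNCCAC, the letters of a sterol regulatory element, for TCACGTGA, an E-box that SREBP-1 can also bind, for CCAAT, read by NF-Y, and for GGGCGG, read by SP1. CCAAT stood in 23 of 37 promoters of members (62.2%) and in 32% of all 35116 promoters, and GGGCGG in 33 of 37 (89.2%) and in 42.6% of all. TCACNCCAC stood in 1 member promoter and in 0.883% of all, and TCACGTGA in 1 and in 0.854% of all. CCAAT stood in 8 of 13 promoters (61.5%) of the members that fell by at least 0.5 with Si306 and in 15 of 24 promoters (62.5%) of the other members, so the share hardly differed. GGGCGG stood in 12 of these 13 (92.3%) and 21 of these 24 (87.5%). TCACNCCAC and TCACGTGA each stood in 1 of the 13 and 0 of the 24, too few to compare. The members printed are those that fell by at least 0.5 with Si306 at either dose and have a single listed start: SREBF2 at chr22:41832855-41833104 (plus strand), INSIG1 at chr7:155297628-155297877 (plus strand), LSS at chr21:46228775-46229024 (minus strand), MVK at chr12:109573544-109573793 (plus strand), STARD4 at chr5:111512536-111512785 (minus strand) and SCD at chr10:100346983-100347232 (plus strand). Each is written 5′ to 3′ in the direction of the gene, and capitals mark the matches on either strand, where no match shared a base with a match of a different motif; a run of capitals can hold overlapping matches of 1 motif, as GGGCGG does in INSIG1.
SREBF2: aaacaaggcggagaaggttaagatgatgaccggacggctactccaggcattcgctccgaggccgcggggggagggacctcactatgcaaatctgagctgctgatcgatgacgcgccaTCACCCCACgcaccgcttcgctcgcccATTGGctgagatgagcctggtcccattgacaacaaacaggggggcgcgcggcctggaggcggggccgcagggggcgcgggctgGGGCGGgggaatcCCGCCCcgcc
INSIG1: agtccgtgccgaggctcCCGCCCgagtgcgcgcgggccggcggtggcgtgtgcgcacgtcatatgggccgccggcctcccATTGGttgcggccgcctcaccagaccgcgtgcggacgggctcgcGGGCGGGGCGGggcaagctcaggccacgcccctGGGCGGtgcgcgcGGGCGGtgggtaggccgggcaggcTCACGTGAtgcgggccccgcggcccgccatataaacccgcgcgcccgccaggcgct
LSS: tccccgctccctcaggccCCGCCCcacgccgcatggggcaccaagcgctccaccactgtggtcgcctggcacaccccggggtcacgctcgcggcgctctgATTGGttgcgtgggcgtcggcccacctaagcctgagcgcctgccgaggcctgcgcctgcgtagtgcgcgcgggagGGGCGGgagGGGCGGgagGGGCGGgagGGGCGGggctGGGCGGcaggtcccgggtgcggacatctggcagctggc
MVK: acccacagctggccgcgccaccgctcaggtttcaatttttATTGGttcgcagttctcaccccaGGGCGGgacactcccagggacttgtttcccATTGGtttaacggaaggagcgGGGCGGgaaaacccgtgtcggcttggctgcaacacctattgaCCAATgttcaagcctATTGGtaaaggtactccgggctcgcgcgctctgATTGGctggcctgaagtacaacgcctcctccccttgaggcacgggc
STARD4: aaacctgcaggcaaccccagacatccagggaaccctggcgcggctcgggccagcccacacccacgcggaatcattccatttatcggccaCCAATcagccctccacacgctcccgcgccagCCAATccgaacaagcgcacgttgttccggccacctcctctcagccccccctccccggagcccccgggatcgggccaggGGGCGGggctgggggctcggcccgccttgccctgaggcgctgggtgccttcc
SCD: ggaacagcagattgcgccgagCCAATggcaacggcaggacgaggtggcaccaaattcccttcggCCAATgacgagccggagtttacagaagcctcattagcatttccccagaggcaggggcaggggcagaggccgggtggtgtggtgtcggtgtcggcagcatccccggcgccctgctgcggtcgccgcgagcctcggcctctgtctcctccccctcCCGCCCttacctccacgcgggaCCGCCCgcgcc
The match in SREBF2 lay 133 to 125 bases before the start and the one in INSIG1 56 to 49 bases before it. MVK held 5 CCAAT matches and LSS 6 GGGCGG matches, the highest counts of these motifs among the 6 promoters. A match describes letters in this window and says nothing of binding.

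The headers of the 24 deposited scanner tables, labelled as 6 biological replicates for each configuration, name 8 arrays scanned 3 times each, so that each configuration rests on n = 2 arrays, and whether these carry separate cultures is not stated. The p-values therefore measure the spread between arrays, which may be technical. PT alone was on 1 slide and the Si306 configurations on the other. When scans were set against each other over the members, their log2 ratios differed with a median SD of 0.0491 (same array), 0.0702 (the 2 arrays of a configuration) or 0.389 (different configurations). In 2 scans the label disagreed with the array: U87 2 Gy replicate 5 lay on an array of U87 10 Gy, and over the members differed from it with an SD of 0.0589 and from the arrays of its label with 0.197, and U87 10 Gy replicate 2 lay on an array of U87 2 Gy, with 0.0662 and 0.136. Both were left out. Of 8 markers of glioblastoma lines, 6 were well above background in both channels on all 8 arrays, while of the leukocyte markers 2 of 5 and of the epithelial markers 1 of 4 were, and PTPRC, CDH1 and KRT5 were so on none. In bulk RNA, fewer cells and less RNA in a cell cannot be told apart. Treated RNA was labelled with Cy5 on every array, without a dye swap, so a dye effect of a single gene cannot be told apart from the treatment in the 4 configurations, while it cancels where the doses are compared.

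For PT alone, which asks what protons changed against untreated cells, few members changed by 0.5 or more after loess. In U87 2 Gy 17 of 31 rose and 5 fell at an adjusted p under 0.05, where 32.2% and 25% of all tested genes did, and their median was 0.11 against 0.02 for all genes. In U87 10 Gy 15 rose and 9 fell, where 31.2% and 26.3% of all genes did, with a median of 0.07 against 0.02. The risers of both doses include FASN, which passed the filter on dim probes only through the treated RNA. At the 0.5 level only MVD and NSDHL rose in U87 2 Gy (2 of 31, with 4.13% of all genes rising and 1.62% falling by as much) and MVD in U87 10 Gy (1 of 31, with 4.47%), and SCD fell in U87 10 Gy (1 of 31, with 2.49% falling by as much). No member was a DEG in either, where 0.727% and 0.967% of all genes were. Under median centring, an alternative to the intensity-dependent loess curve, 25 members rose and 6 fell in U87 2 Gy (42.6% and 41.4% of all genes) and 23 rose and 4 fell in U87 10 Gy (41.1% and 40.2%), with medians of 0.36 and 0.26. At the 0.5 level 11 were then higher in U87 2 Gy and 3 in U87 10 Gy, where 13.9% and 11.4% of all genes were. At that level 0 were lower in either, where 18.7% and 12.5% of all genes were. With the log ratio of the scanner software 15 rose and 6 fell in U87 2 Gy (26.4% and 28.3% of all genes), and 10 rose and 11 fell in U87 10 Gy (25.5% and 28.8%).

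MVD, mevalonate diphosphate decarboxylase, which makes isopentenyl diphosphate, read 0.72 and 0.45 on the arrays of U87 2 Gy and 0.58 and 0.61 on those of U87 10 Gy. The arrays of both doses overlapped and all lay above the untreated control, with 0.59 ± 0.05 (SE, n = 2, adjusted p = 4.02e-06) and 0.59 ± 0.05 (SE, n = 2, adjusted p = 3.33e-06). NSDHL, a sterol dehydrogenase that helps to remove the methyl groups of lanosterol, read 0.55 and 0.52 at 2 Gy and 0.46 and 0.50 at 10 Gy. Its means were 0.53 ± 0.04 (adjusted p = 4.57e-06) and 0.48 ± 0.04 (adjusted p = 8.40e-06). Of the other mevalonate genes, HMGCS1, which condenses acetyl groups to HMG-CoA, rose in U87 2 Gy on its brighter probe (0.31 and 0.32, adjusted p = 1.63e-05). Its other probe fell there (-0.31 ± 0.03). In U87 10 Gy the brighter probe lay at -0.09 and 0.00 and the other at -0.17. MVK rose at both doses, by 0.25 and 0.14, while IDI1 passed the test at neither (0.02 and 0.07). Under median centring all 7 mevalonate genes rose at both doses, IDI1 by 0.22 and 0.26, where 42.6% and 41.1% of all genes rose. Their median was then 0.38 at each dose. Median centring leaves a trend of the ratio on brightness in place, and the 5712 brightest genes had medians of 0.38 and 0.31. The 5711 genes next in brightness had medians of 0.20 and 0.18.

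Of the 11 genes from squalene to cholesterol 6 rose and 2 fell in U87 2 Gy, and 4 rose and 4 fell in U87 10 Gy (8 and 3, and 8 and 1, under median centring). DHCR7, the last step of one route to cholesterol, rose by 0.27 and by 0.22. FDFT1, squalene synthase, read -0.18 and -0.15, and under median centring 0.17 and 0.14. SQLE, squalene epoxidase, rose by 0.24 at 2 Gy and lay at -0.07 at 10 Gy. LSS, lanosterol synthase, passed the test at neither dose on the brightest of its 4 probes, with -0.01 and -0.07, while the 2 that overlap fell, one by 0.14 and 0.32 and the other by 0.15 and 0.26.

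Among the sterol sensors, 4 of 5 rose and 1 fell in U87 2 Gy, and 3 rose and 2 fell in U87 10 Gy (5 and 0, and 4 and 0, under median centring). INSIG1, itself a target of SREBPs, fell at both after loess, which median centring did not show (0.12 and -0.06, the latter not called), with -0.27 and -0.18 at 2 Gy and -0.38 and -0.31 at 10 Gy, so that the arrays of the 2 doses did not overlap, but the difference missed the test (-0.12 ± 0.05, adjusted p = 0.143). INSIG2, which also anchors SCAP, rose, with means of 0.26 and 0.14. SC5DL, which places a double bond late in the pathway, fell by 0.27 and by 0.35 on its brighter probe, and read -0.15 and 0.17 on the other. STARD4, which carries cholesterol between membranes, rose by 0.27 and by 0.24.

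The fatty acid genes split in direction. FADS2, which makes the first desaturation of polyunsaturated fatty acids, read 0.24 and 0.32 at 2 Gy and 0.35 and 0.40 at 10 Gy. ELOVL6, which lengthens palmitate, read -0.52 and -0.34 at 2 Gy and -0.35 and -0.28 at 10 Gy. These 2 genes lay on opposite sides of 0 on all 4 arrays and passed the test at both doses. FASN, fatty acid synthase, was not well above background in the untreated RNA on any array. After loess its signal ratio was 1.23-fold in U87 2 Gy and 1.37-fold in U87 10 Gy. It passed the filter on dim probes only through the treated RNA of these arrays, so no test is given for it, though its calls enter the counts of all members. Under median centring FASN read -0.16 and 0.09, so the ratios after loess are no lower bounds. They use the control's own normalized signal, averaged over arrays, which exceeded the dimmest signal called above background. On the Si306 slide the RNA of PT alone, labelled with Cy3, was not above background for FASN at either dose. Whether dye or detection made this difference was not tested.

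**Figure D1:**
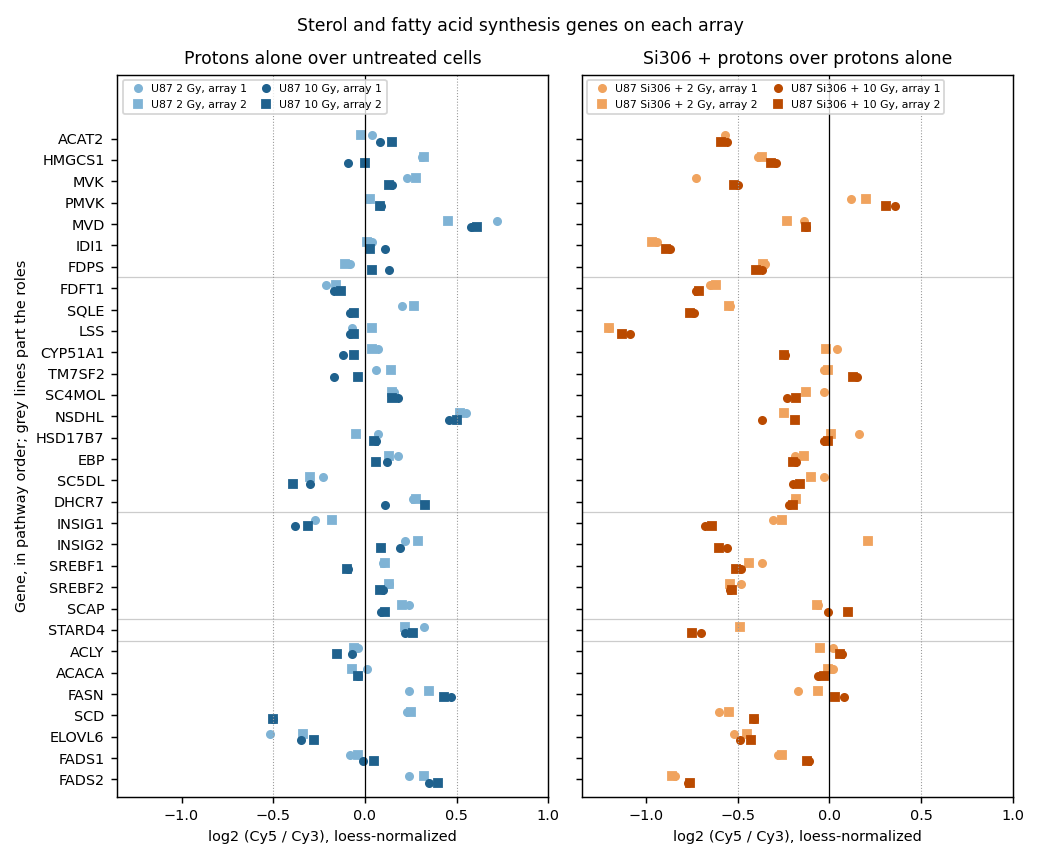
The horizontal axis gives the log2 ratio of Cy5 to Cy3 for each of the 31 genes in pathway order, with a circle for array 1 and a square for array 2 of each configuration and dotted lines at -0.5 and 0.5. With protons alone (left) only MVD, NSDHL and SCD reach the dotted lines in their means, while with Si306 (right) 12 genes fall past -0.5 at one dose or both and LSS lies beyond -1 on all 4 arrays.

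When Si306 was added to PT, genes of both branches fell after loess, with LSS, IDI1 and FADS2 lowest on the brightest probes. In U87 Si306 + 2 Gy 21 of 31 members fell and 2 rose at an adjusted p under 0.05, where 27.9% of all tested genes fell and 38.6% rose, and the member median was -0.27 against 0.04 for all genes. In U87 Si306 + 10 Gy 23 fell and 2 rose, where 27.2% fell and 35.2% rose, with a median of -0.30 against 0.03. At the 0.5 level 9 of 31 fell in U87 Si306 + 2 Gy (3.23% of all genes did) and 11 of 31 in U87 Si306 + 10 Gy (2.73% did), and 0 rose in either, where 4.79% and 3.35% of all genes did. LSS was the 1 DEG in each, where 0.158% and 0.0832% of all genes were DEGs with a fall. Together 12 members fell by at least 0.5 at either dose and 8 at both.

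These directions differed between normalizations. Of the 31 members, 19 lay among the 5712 brightest of the tested genes, and under median centring, which leaves a trend of the ratio on brightness in place, the median of those 5712 genes was 0.62 with Si306 at 2 Gy and 0.42 at 10 Gy, against -0.77 and -0.41 for the 5712 dimmest. After loess the brightest genes had medians of 0.00 and -0.01. Under median centring 14 members rose and 10 fell at 2 Gy (46.8% and 42.3% of all genes) and 10 rose and 16 fell at 10 Gy (44.2% and 38.6%) at an adjusted p under 0.05. The member medians were then 0.05 and -0.11, with 6 members higher and 4 lower by at least 0.5 at 2 Gy (24.6% and 26.4% of all genes) and 2 higher and 4 lower at 10 Gy (16.1% and 10.1%). Of the 9 falls of at least 0.5 at 2 Gy, 4 stayed below 0 at an adjusted p under 0.05, and of the 11 at 10 Gy, 10 did. Those lower at both doses under both normalizations and past 0.5 at both under loess were LSS, IDI1, SREBF2 and FADS2. With the log ratio of the scanner software, which has its own correction, 13 members fell by at least 0.5 at each dose, with medians of -0.38 and -0.40, and 8.79% and 7.19% of all genes fell by as much.

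**Figure D2:**
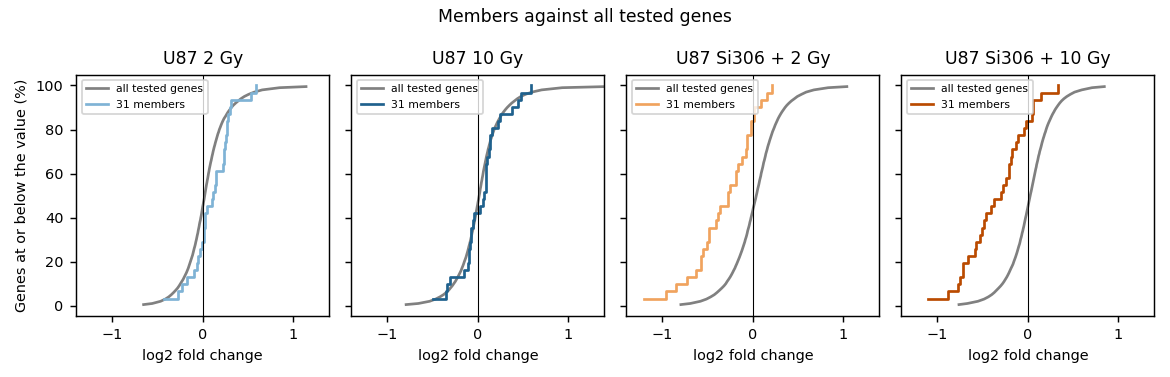
Cumulative share of genes, in percent, against the log2 fold change after loess, for the 31 members (colored steps) and all tested genes (grey curve; 22823 to 22846 genes), 1 panel for each configuration. In the middle of the range the steps lie to the right of the grey curve in U87 2 Gy, where 29% of members and 45.2% of all genes are below 0. They run closer to it in U87 10 Gy (41.9% and 46.4%). With Si306 they lie to its left, with member medians of -0.27 and -0.30.

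LSS, lanosterol synthase, which closes squalene epoxide to the first sterol, read -1.20 on both arrays of U87 Si306 + 2 Gy and -1.09 and -1.13 on those of U87 Si306 + 10 Gy. All 4 arrays lay past the 2-fold limit, with -1.20 ± 0.03 (adjusted p = 1.22e-09) and -1.11 ± 0.03 (adjusted p = 3.64e-09). Under median centring LSS read -0.64 and -0.72, so that it was then no DEG at either dose. The value is that of the brightest of 4 probes for the gene, and the others are given below. FDFT1, squalene synthase, the first enzyme committed to sterols, read -0.65 and -0.62 at 2 Gy and -0.73 and -0.71 at 10 Gy. SQLE, squalene epoxidase, which adds the oxygen that LSS then uses, read -0.54 and -0.55 at 2 Gy and -0.74 and -0.76 at 10 Gy. Their means were -0.63 and -0.72 for FDFT1, where the difference between the doses missed the test (-0.09 ± 0.05, adjusted p = 0.182), and -0.55 and -0.75 for SQLE, where it passed. Under median centring FDFT1 read -0.03 and -0.31 and SQLE -0.04 and -0.40, and both calls were lost at 2 Gy.

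Of the 11 genes from squalene to cholesterol, 6 fell and 0 rose in U87 Si306 + 2 Gy and 9 fell and 1 rose in U87 Si306 + 10 Gy, with medians of -0.16 and -0.21 (-0.01 and -0.07 under median centring). NSDHL, with a value on only 1 array of U87 Si306 + 2 Gy because the other spots were marked as outliers, read -0.25 there and -0.37 and -0.19 at 10 Gy. DHCR7 read -0.19 and -0.21 in its means and EBP, a sterol isomerase, -0.16 and -0.19. SC4MOL, a sterol methyl oxidase, missed the test at 2 Gy (-0.08) and fell by 0.21 at 10 Gy. Under median centring EBP read 0.56 and 0.30, and DHCR7 0.55 and 0.29. CYP51A1, lanosterol demethylase, did not pass the test at 2 Gy on its brighter probe (0.01) and fell by 0.24 at 10 Gy, while its other probe fell by 0.18 and by 0.43. TM7SF2, a sterol reductase, was the riser, with 0.15 and 0.13 on the arrays of U87 Si306 + 10 Gy. HSD17B7, a sterol keto-reductase with close pseudogene copies, passed the test in no configuration on its brighter probe (0.09 and -0.02 with Si306).

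Of the 7 mevalonate genes 6 fell and 1 rose in U87 Si306 + 2 Gy, and 5 fell and 1 rose in U87 Si306 + 10 Gy, with a median of -0.38 in each (0.15 and 0.02 under median centring). IDI1, which interconverts the isoprenoid units, read -0.94 and -0.97 at 2 Gy and -0.87 and -0.89 at 10 Gy, on its only probe. Its means were -0.96 ± 0.03 (adjusted p = 3.70e-09) and -0.88 ± 0.03 (adjusted p = 1.19e-08). MVK, mevalonate kinase, read -0.73 on the only array of U87 Si306 + 2 Gy with a value, and -0.50 and -0.52 on those of U87 Si306 + 10 Gy. ACAT2, the cytosolic thiolase that opens the pathway, likewise had 1 value at 2 Gy, of -0.57, and read -0.56 and -0.59 at 10 Gy. Under median centring MVK read 0.05 and 0.02, and ACAT2 0.15, a called rise, and -0.11. HMGCS1 (-0.38 and -0.30 in its means) and FDPS, which joins the isoprenoid units (-0.36 and -0.38), fell at both doses after loess, and read 0.20 and 0.10, and 0.41 and 0.13, under median centring. The gene that rose was PMVK, phosphomevalonate kinase, the step after MVK, with 0.12 and 0.20 at 2 Gy and 0.36 and 0.31 at 10 Gy. MVD, which was up regulated by PT alone, had means of -0.19 and -0.13 with Si306 and passed the test at 2 Gy alone (adjusted p = 0.00984 and 0.0544), and under median centring read -0.50 and -0.29.

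Of the 5 sterol sensors and SREBPs, 3 fell and 1 rose in U87 Si306 + 2 Gy, and 4 fell in U87 Si306 + 10 Gy, with medians of -0.28 and -0.53 (0.44 and -0.25 under median centring). SREBF2, whose product mainly drives the sterol branch, read -0.48 and -0.54 at 2 Gy and -0.54 and -0.53 at 10 Gy. SREBF1, whose product mainly drives the fatty acid branch, read -0.37 and -0.44 at 2 Gy and -0.48 and -0.51 at 10 Gy. The arrays of the 2 doses overlapped for SREBF2 and did not for SREBF1, where the difference between the doses missed the test (-0.08 ± 0.05, adjusted p = 0.214). Under median centring SREBF1 read 0.44 and 0.08 and SREBF2 -0.12 and -0.25. INSIG1 read -0.31 and -0.26 at 2 Gy and -0.68 and -0.64 at 10 Gy, and under median centring 0.08 and -0.41. SCAP missed the test at both doses (-0.07 and 0.05). STARD4 had a value on 1 array at 2 Gy, of -0.49, whose test borrows its spread from the other groups, as for MVK, ACAT2, NSDHL and INSIG2 there, and read -0.70 and -0.75 at 10 Gy, with a mean of -0.72 ± 0.04 there, and under median centring -0.16, no longer called, and -0.48.

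Of the 7 fatty acid genes 5 fell at 2 Gy with Si306, 1 of them FASN, which was not above background there, and 4 fell at 10 Gy, and 0 rose at either, with medians of -0.27 and -0.11 (-0.15 and -0.26 under median centring). FADS2 read -0.84 and -0.86 at 2 Gy and -0.77 and -0.76 at 10 Gy. SCD, which makes oleate from stearate, read -0.60 and -0.55 at 2 Gy and -0.41 on both arrays at 10 Gy, and its other probes gave -0.21 and -0.08 at 2 Gy and -0.55 and -0.12 at 10 Gy. ELOVL6 read -0.52 and -0.45 at 2 Gy and -0.49 and -0.43 at 10 Gy. The 3 genes lay below 0 on all 4 arrays, and under median centring FADS2 read -0.15 and -0.28, SCD 0.04 and 0.02, and ELOVL6 -0.24 and -0.26. ACLY, which makes cytosolic acetyl-CoA, missed the test at both doses (-0.02 and 0.06). FASN was well above background in neither channel with Si306 at either dose. ACACA, acetyl-CoA carboxylase, was so in neither channel at 2 Gy and in Cy5 on 1 array at 10 Gy. No fold is therefore given for them here, and their values under other settings below are not read as changes.

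**Figure D3:**
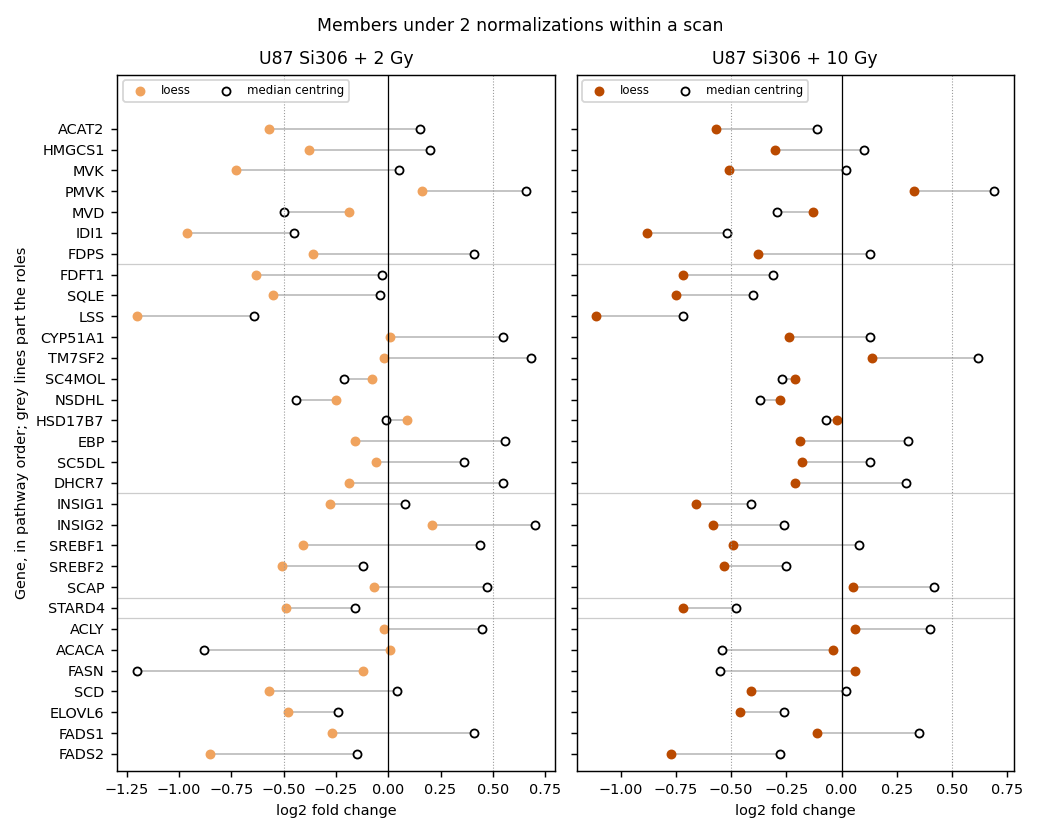
Each line joins the log2 fold change of a gene after loess (filled) to that after median centring (open), for U87 Si306 + 2 Gy (left) and U87 Si306 + 10 Gy (right), in pathway order. Most open points lie to the right of the filled ones, and LSS and IDI1 stay below -0.4 in both.

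The comparison of the proton doses, with and without Si306, gave few differences among the members. For PT alone, 10 Gy minus 2 Gy, 1 member was higher and 5 lower at an adjusted p under 0.05, where 9.92% and 11.2% of all genes were, and 1 member, SCD, differed by at least 0.5 (0.495% of all genes were lower and 0.705% higher by as much). SCD read 0.23 and 0.25 in U87 2 Gy and -0.50 on both arrays of U87 10 Gy, a difference of -0.74 ± 0.04 (adjusted p = 6.48e-06). All arrays of the 2 doses lay on opposite sides of 0. Within the 3 scan passes, each of which holds both doses, the difference was -0.75, -0.75 and -0.72. With every scan under its label, the 2 disagreeing scans included, it was -0.26 (adjusted p = 0.386). The value of -0.74 was that of the brightest of 3 SCD probes, and the other 2 gave -0.13 (adjusted p = 0.126) and 0.00 (adjusted p = 0.995). HMGCS1 was lower at 10 Gy by -0.36 ± 0.05 (adjusted p = 0.000597) on its brighter probe, while the other was higher by 0.14 (adjusted p = 0.0499). SQLE was lower by -0.31 ± 0.05 (adjusted p = 0.00119). TM7SF2 and SREBF1 were lower by -0.20 each, and FDPS was higher by 0.18.

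For the addition of Si306, 10 Gy minus 2 Gy, 5 members were higher and 5 lower at an adjusted p under 0.05, where 10.2% and 12.6% of all genes were, and 1 member, INSIG2, differed by at least 0.5 (0.784% of all genes were lower and 0.605% higher by as much). INSIG2 read 0.21 on the only array of U87 Si306 + 2 Gy with a value and -0.56 and -0.60 in U87 Si306 + 10 Gy. Both arrays at 10 Gy lay below 0 and the one at 2 Gy above it, a difference of -0.79 ± 0.07 (adjusted p = 4.88e-05). With 1 array at 2 Gy this test assumes that it varies like the arrays of the other groups. A second probe, measured on both arrays, differed in the same direction by -0.38 ± 0.05 (adjusted p = 0.000934), from 0.25 to -0.13. Within the 2 scan passes that have a value at both doses the difference was -0.84 and -0.77, and it has no value without array 2 of U87 Si306 + 2 Gy. INSIG1 was lower by -0.38 ± 0.05 (adjusted p = 0.000668), CYP51A1 by -0.25, STARD4 by -0.23 and SQLE by -0.20, and MVK, PMVK, SCD and FADS1 were higher by 0.22, 0.17, 0.16 and 0.15, of which MVK, SCD and FADS1 read -0.03, -0.02 and -0.06 under median centring. The second SCD probe differed the other way, by -0.34 (adjusted p = 0.00197), and the second probes of MVK and FADS1 gave 0.04 and -0.06, neither called. The MVK and STARD4 differences, like that of INSIG2, rest on 1 array at 2 Gy. The fifth higher value was that of FASN, which was not above background here. The control differs between the 2 doses here, so the values compare what Si306 added to each.

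**Figure D4:**
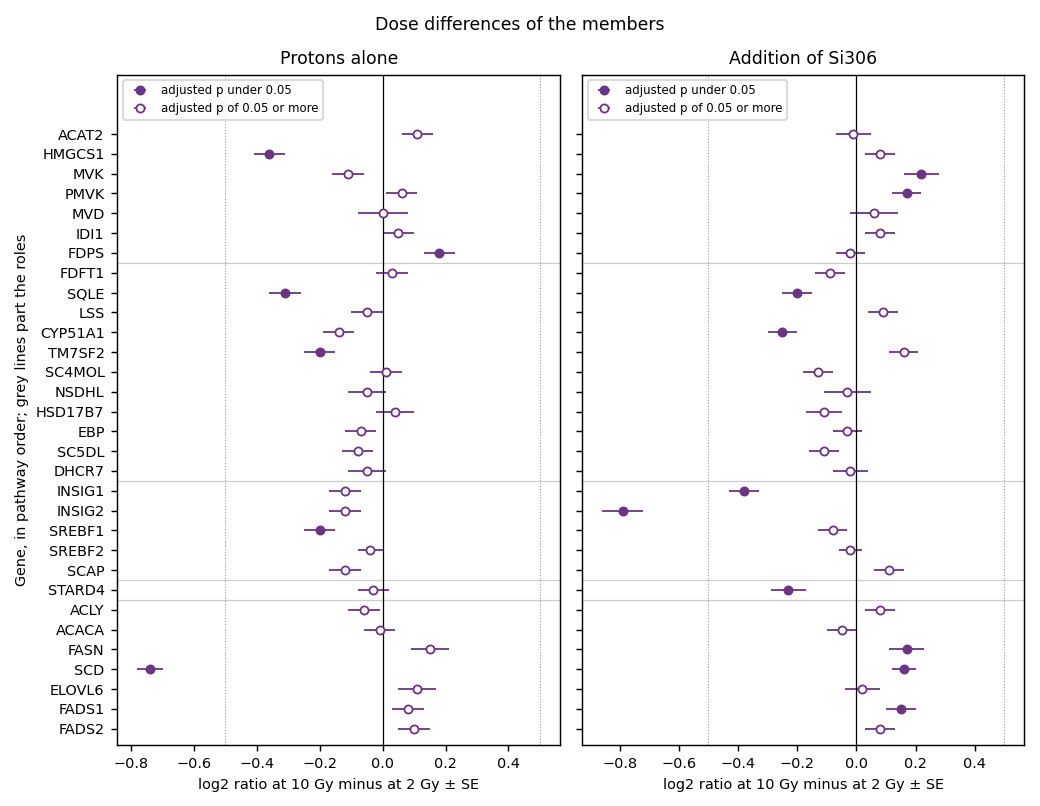
The horizontal axis gives the log2 ratio at 10 Gy minus that at 2 Gy with its SE for each gene, for protons alone (left) and for the addition of Si306 (right). Filled points passed an adjusted p under 0.05, and only SCD on the left and INSIG2 on the right lie beyond the dotted lines at 0.5.

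Where several probes measure 1 gene they did not always give the same value. LSS has 4 probes on chromosome 21 of build hg17, the build in the headers. In U87 Si306 + 2 Gy the probe at 46433471 to 46433530 gave -1.20 and the one at 46433727 to 46433786 gave -0.99, while the probes at 46432995 to 46433054 and 46433015 to 46433074, which overlap each other and lie beyond the first in the direction of the gene, gave -0.03 and -0.04. In U87 Si306 + 10 Gy the 4 gave -1.11, -0.85, -0.08 and -0.08. FADS2 had a second probe, above background in Cy3 on 1 of 8 arrays, that gave -0.05 and -0.15 with Si306 beside -0.85 and -0.77. The second probe of MVK gave -0.24 and -0.19, and that of SREBF1 -0.22 and -0.05.

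HMGCS1 fell with Si306 on both of its probes (-0.38 and -0.27 at 2 Gy, -0.30 and -0.49 at 10 Gy), while in U87 2 Gy they went opposite ways, with 0.31 ± 0.03 and -0.31 ± 0.03. FADS1, which makes arachidonic acid, fell with Si306 on both probes after loess, the brighter at 0.41 and 0.35 under median centring (-0.27 and -0.21 at 2 Gy, -0.11 and -0.27 at 10 Gy), and in U87 2 Gy its second probe gave 0.55 beside -0.06. ACAT2 fell on both (-0.57 and -0.43 at 2 Gy). SCD in U87 2 Gy was 0.24 on its brightest probe and -0.55 on the next. With the mean of a gene's probes in place of the brightest, 5 members fell by at least 0.5 with Si306 at 2 Gy and 8 at 10 Gy (2.58% and 2.16% of all genes did), and LSS read -0.56 and -0.53, so that no member was then past the 2-fold limit.

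**Figure D5:**
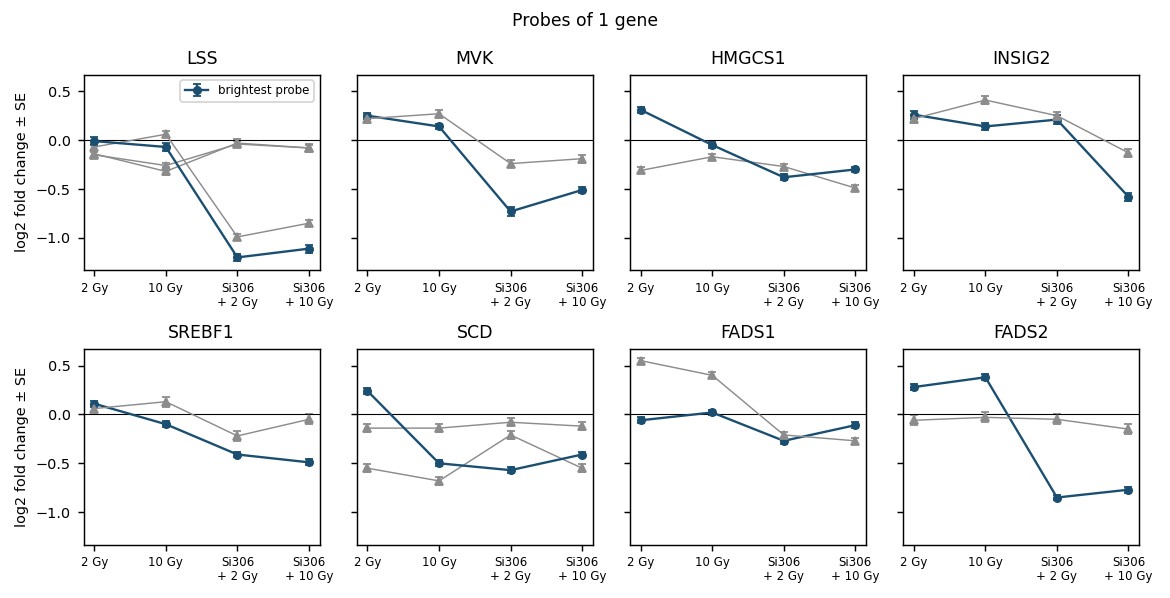
The vertical axis gives the log2 fold change with its SE of each probe of 8 genes in the 4 configurations, with the brightest probe, used for the gene, in blue and the others in grey. The 4 LSS probes part into a pair near -1 and a pair near 0 with Si306, and the SCD probes part in U87 2 Gy; INSIG2 and MVK have 1 array for the blue point of U87 Si306 + 2 Gy.

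Other genes of lipid metabolism were counted from lists written by hand, to be read against the shares of all tested genes that rose and fell, which with Si306 were 38.6% and 27.9% at 2 Gy and 35.2% and 27.2% at 10 Gy, and with PT alone 32.2% and 25% at 2 Gy and 31.2% and 26.3% at 10 Gy. Under median centring they were, in the same order, 46.8% and 42.3%, 44.2% and 38.6%, 42.6% and 41.4%, and 41.1% and 40.2%. Of 6 genes that process SREBPs or degrade sterol-bound proteins in the endoplasmic reticulum, 5 rose and 0 fell in both Si306 configurations, with medians of 0.53 and 0.30. Under median centring 5 rose and 1 fell in each, with medians of 0.99 and 0.65. With the log ratio of the scanner software 1 fell at 10 Gy. RNF139, a ubiquitin ligase of that membrane, rose by 0.65 in U87 Si306 + 2 Gy. In PT alone 2 of the 6 rose at each dose and 3 and 2 fell (4 and 3 rose and 1 and 0 fell under median centring), with SEC24D, a coat protein of transport vesicles, at -0.63 in U87 2 Gy.

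Of 10 genes of the isoprenoid branch, which uses the products of the mevalonate steps for prenylation, ubiquinone and dolichol, 3 rose and 5 fell in each Si306 configuration (5 and 2 at 2 Gy, 3 and 4 at 10 Gy under median centring), and 5 rose and 2 fell in U87 2 Gy and 7 and 2 in U87 10 Gy (7 and 1, and 8 and 2, under median centring). FNTA, a subunit of farnesyltransferase, rose by 0.64 and by 0.77, and COQ2, of ubiquinone synthesis, fell by 0.52 in U87 Si306 + 10 Gy. Of 13 genes of sterol efflux, esterification and LXR, 4 rose and 5 fell at 2 Gy with Si306 and 4 rose and 6 fell at 10 Gy (7 and 3, and 5 and 3, under median centring), while with PT alone 6 rose and 4 fell at 2 Gy and 5 rose and 5 fell at 10 Gy (8 and 3, and 7 and 4, under median centring). MYLIP, a ubiquitin ligase under LXR control, fell by 0.54 in U87 Si306 + 10 Gy, and CH25H, cholesterol 25-hydroxylase, by 0.61 in U87 10 Gy.

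Of 12 tested genes (13 listed) of other fatty acid synthesis and activation, 6 rose and 5 fell in each Si306 configuration (6 and 2 at 2 Gy, 6 and 3 at 10 Gy under median centring). After loess ACSL3, which activates long-chain fatty acids, was the lowest in all 4 configurations, at -0.65, -0.68, -0.64 and -0.87 from U87 2 Gy to U87 Si306 + 10 Gy. Of 13 genes of fatty acid oxidation 5 rose and 3 fell at 2 Gy and 7 rose and 3 fell at 10 Gy with Si306 (12 and 1, and 11 and 1, under median centring). Their medians were 0.03 and 0.11, and 0.42 and 0.31 under median centring. CPT1A, which brings fatty acids into mitochondria, rose by 0.53 in U87 Si306 + 2 Gy. Of 8 genes of glycerolipid assembly 3 rose and 3 fell at 2 Gy and 4 rose and 2 fell at 10 Gy with Si306 (4 and 3, and 4 and 2, under median centring). LPIN1, a phosphatidate phosphatase, fell by 0.78 and by 0.70 after loess. With PT alone the risers and fallers of these last 3 lists were 4 and 4, 5 and 4, and 3 and 1 at 2 Gy (7 and 5, 9 and 0, and 4 and 2 under median centring), and 5 and 4, 7 and 2, and 4 and 1 at 10 Gy (7 and 5, 10 and 0, and 5 and 2). In those configurations HADHA, of mitochondrial fatty acid oxidation, rose by 0.59 and by 0.70, and PNPLA2, a triglyceride lipase, by 0.59 and by 0.72.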

How the data were processed

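RNA of 4 configurations of U87 MG was hybridized by the authors to 2-color Agilent 4x44K arrays, with Cy5 for treated and Cy3 for control RNA. The deposited scanner tables (Agilent Feature Extraction 9.5.3.1, per the file headers) hold, for 45015 spots, mean signal intensity and background in both channels; their log10 ratio had been corrected and normalized by the scanner software. The deposited series matrix holds that log10 ratio rounded (largest difference 0.005) and was used as an alternative.

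Of 24 scans, 22 were used. Control spots were left out of all values. Outlier-marked spots (2.98% to 5.73% in each scan) were dropped ahead of the background step, because some have a saturated local background that spoils its fit. The normexp method (offset 50) was followed by loess within each scan, the mean over spots of a probe, and the mean over the scans used of an array, which count as 1 replicate. Probes had to stand well above background, in Cy5 or Cy3, on 2/3 or more of a configuration's arrays, which left 30316 of 41000 probes, and the brightest stood for its gene. Well above background were 57.3% to 66.5% of probe spots in Cy3 and 63.4% to 74.7% in Cy5. At most 0.0115% of spots were saturated. The number of arrays limits the precision.

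The 8 array means entered 1 linear model (limma 3.58.1 and statmod 1.5.0 under R 4.3.3), with 4 residual and 6.58 prior degrees of freedom, and p-values were adjusted over all tested genes by the Benjamini-Hochberg method. A change is called at an adjusted p under 0.05. The methods state no test. A separate-channel model was not used, since dye and slide cannot be told apart in it. On simulated data with 200 changed genes a configuration, tested on 21207 genes, changes of 0.5 were recovered for 97% (2 Gy) and 100% (10 Gy) of changed genes with PT alone, and for 97% and 96% with Si306.

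Members and lists were chosen with earlier results of these data known. Members are given by array where they passed 0.5 in a configuration or differed by as much between doses, and otherwise by mean or range; of each other list, at most the largest riser and faller of a configuration are named. Values of other members, probes and settings were named after they were seen. Alternatives were no background subtraction, the log ratios of the scanner software and of the series matrix, median centring, no filter and a strict filter, the mean of probes, a curve on probe GC content, every scan under its label, leaving out arrays, the replicate number as a block and each slide alone. Pathway enrichment, survival and clonogenic data were not analysed here.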

Additional observations from a re-analysis of the deposited data

Results flagged for a closer look

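Among the members, 2 differed between the proton doses by at least 0.5 at an adjusted p under 0.05 in the test of the difference itself. SCD, with protons alone, was lower at 10 Gy than at 2 Gy by -0.74 (4 arrays), on 1 of its 3 probes. INSIG2, in what Si306 added, was lower at 10 Gy by -0.79 (3 arrays, 1 of them at 2 Gy, which is assumed to vary like those of the other groups), and its second probe gave -0.38. With 2 arrays in a configuration, no test for a single outlying array was possible.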

How the results depend on the processing

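In both Si306 configurations the member median stayed below 0 and no member rose by 0.5 under every alternative run except median centring, and the 2 arrays of a configuration limit all values. Median centring gave 11 higher members in U87 2 Gy (13.9% of all genes were higher by as much), 3 higher and 0 lower in U87 10 Gy (11.4% and 12.5% of all genes), 6 higher and 4 lower at 2 Gy with Si306, where the median was 0.05, 2 higher and 4 lower at 10 Gy with Si306, and 1 higher in the dose difference with Si306 (7.01% of all genes). The genes named next changed sign under it and passed the test in at least one of the 2 normalizations; sign changes that passed in neither are left out. With Si306, FASN was above background in neither channel, and ACACA in neither at 2 Gy and only in Cy5 on 1 array at 10 Gy. Their values there are therefore not read as a change of level. In U87 2 Gy these were FDPS (0.29), FDFT1 (0.17), LSS (0.36), SC4MOL (-0.13), HSD17B7 (-0.25), INSIG1 (0.12), ACLY (0.29), FASN (-0.16) and FADS1 (0.29). In U87 10 Gy these were HMGCS1 (0.18), FDFT1 (0.14), SQLE (0.21), LSS (0.24), CYP51A1 (0.17), TM7SF2 (0.16), SC4MOL (-0.04), SREBF1 (0.26) and ACLY (0.16). In U87 Si306 + 2 Gy these were ACAT2 (0.15), HMGCS1 (0.2), MVK (0.05), FDPS (0.41), TM7SF2 (0.68), EBP (0.56), SC5DL (0.36), DHCR7 (0.55), INSIG1 (0.08), SREBF1 (0.44), SCAP (0.47), ACLY (0.45), ACACA (-0.88), SCD (0.04) and FADS1 (0.41). In U87 Si306 + 10 Gy these were HMGCS1 (0.1), MVK (0.02), FDPS (0.13), CYP51A1 (0.13), EBP (0.3), SC5DL (0.13), DHCR7 (0.29), SREBF1 (0.08), FASN (-0.55), SCD (0.02) and FADS1 (0.35). In the dose difference with Si306 these were MVK (-0.03), ACACA (0.33), SCD (-0.02) and FADS1 (-0.06). With the mean of a gene's probes 5 members fell in U87 Si306 + 2 Gy (2.58% of all genes did), 0 in U87 10 Gy and 0 in the dose difference of protons alone. In U87 2 Gy the sign changed for SCD (-0.15) and FADS1 (0.24). In U87 10 Gy the sign changed for CYP51A1 (0.01), TM7SF2 (0.03) and SREBF1 (0.02). In U87 Si306 + 2 Gy the sign changed for CYP51A1 (-0.08) and ACACA (-0.08). In the dose difference with Si306 the sign changed for SCD (-0.07). With the log ratios of the scanner software and of the series matrix 3 members rose in U87 10 Gy (8.61% of all genes did) and 1 fell in U87 2 Gy (6.58%), and FASN in U87 Si306 + 10 Gy, not above background, read -0.89 in both. With every scan under its label 2 rose and 0 fell in U87 10 Gy, 0 differed between doses with protons alone, and SCD in U87 2 Gy read -0.03. SCD in U87 10 Gy lies at the level, and the count of falls there was 0 without background subtraction, with the curve on GC content, with the replicate block and without both arrays that hold a disagreeing scan; without those arrays 1 member fell in U87 2 Gy. Leaving out single arrays gave 1 to 2 risers and 0 to 1 fallers in U87 2 Gy, 1 to 2 and 0 to 1 in U87 10 Gy, 7 to 9 fallers in U87 Si306 + 2 Gy, 11 to 12 in U87 Si306 + 10 Gy and 0 to 1 in the dose difference with Si306. Scans that share a replicate number did not deviate together (30 pairs, correlations from -0.0843 to 0.0863), so the numbers do not pair them, and with the replicate block and array as a random block 10 members fell with Si306 at 2 Gy and 11 at 10 Gy. The cause of these changes was not tested, other than that median centring leaves the trend on brightness in place.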
